A study of Mus musculus with 18 samples.

Results

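The genes described here were 10 mouse genes that are transcribed at the 2-cell stage of the embryo and lie outside the Zscan4 family: Usp17la, Usp17lb, Usp17ld, Usp17le, Zfp352, Arg2, Gm8300, Gm5662, Tmem92 and Duxf3. They were chosen on levels and changes measured in these same libraries, with earlier results of every comparison known, and were taken by symbol from the 53672 genes counted in each library, and all 10 also had enough counts to be among the 18791 genes tested. The cells were E14TG2a mouse embryonic stem cells (ESCs) with Hdac1/2lox/lox alleles, in which OHT (4-hydroxytamoxifen, 1 µM) removes both endogenous genes. All 3 lines shared these alleles, and each also carried a stable piggyBac rescue transgene for Flag-tagged HDAC1 as wild type (HDAC1-WT), HDAC1–E63R or HDAC1–Y48E. Every line was sequenced untreated and after OHT, with 3 libraries in each of 6 groups and 18 libraries in total, and the labels give 5 days for both states, whereas the study's methods describe OHT for the first of these days only, followed by further culture. Untreated cells therefore held endogenous HDAC1 and HDAC2 besides the transgene, and each mutant was present in 1 stably transfected line, for which clone or pool is not given in the sources used here, so that the mutation and the line cannot be told apart in comparisons between lines.

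The 2-cell stage is when the mouse embryo switches on its own genome, and a brief wave of genes is transcribed then and silenced soon after. A small and changing part of any ESC culture re-enters this programme, and such cells are called 2-cell-like. DUX, a double homeodomain factor, binds and activates many genes of the wave together with MERVL, an endogenous retrovirus whose long terminal repeats act as promoters. Chromatin regulators hold the programme down in other ESCs, among them KDM1A, which works with HDAC1/2 in the CoREST complex. In bulk RNA, more 2-cell-like cells and more RNA per cell cannot be told apart.

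Between 9019615 and 11454638 reads per library were counted on genes, and 3 counts in a library corresponded to 0.262 to 0.333 CPM (counts scaled by TMM to library size). The third untreated HDAC1–E63R library stood apart: its counts differed from those of the other two by a chi-square per degree of freedom of 57.6 and 63.5, against 3.34 to 7.31 in every other pair of replicates. The OHT responses of HDAC1–E63R, the counts of calls and the Usp17l sums that rest on it are given with and without it. Hdac1 was counted at 200.5 to 210.2 CPM in untreated HDAC1-WT cells, 94.8 to 110.1 CPM in untreated HDAC1–E63R cells and 97.8 to 103.5 CPM in untreated HDAC1–Y48E cells. Hdac2 lay between 149.0 and 209.5 CPM untreated and between 112.2 and 158.0 CPM after OHT over the 3 lines. Its log2 fold change with OHT was −0.66 (SE 0.11) in HDAC1-WT, −0.21 (SE 0.11) in HDAC1–E63R and −0.07 (SE 0.11) in HDAC1–Y48E. Counts over whole genes include any exons that remain after deletion and, for Hdac1, the transgene, so they do not check the deletion. The 7 ESC markers (Pou5f1, Sox2, Nanog, Esrrb, Zfp42, Tdgf1, Utf1) were detected in every group, and their sum lay between 5231 and 5317 CPM in untreated HDAC1-WT cells and between 1659 and 1825 CPM in HDAC1–Y48E cells after OHT.

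The 10 genes were low in HDAC1-WT cells with or without OHT, with group means from 0 to 1.47 CPM, and 7 of them were called higher in the untreated HDAC1–E63R line (3.32% of all tested genes were) and 9 in the untreated HDAC1–Y48E line (2.62%). Those not called were Zfp352, Arg2 and Duxf3 in the former and Duxf3 in the latter. With OHT, 8 rose further in the HDAC1–E63R line, where 4.74% of tested genes did, and 7 in the HDAC1–Y48E line, where 10.8% did. Tmem92 departed from this, because it was highest in untreated HDAC1–Y48E cells and fell there with OHT. Duxf3, the gene for DUX itself, likewise had its highest mean there, although the untreated mutant groups overlapped. A gene was called here where its Benjamini-Hochberg adjusted p, from edgeR's quasi-likelihood test over the 18791 genes, was under 0.01 and its change exceeded 2-fold. Because these libraries chose the genes, their fold changes and calls are given as a description.

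**Figure D1:**
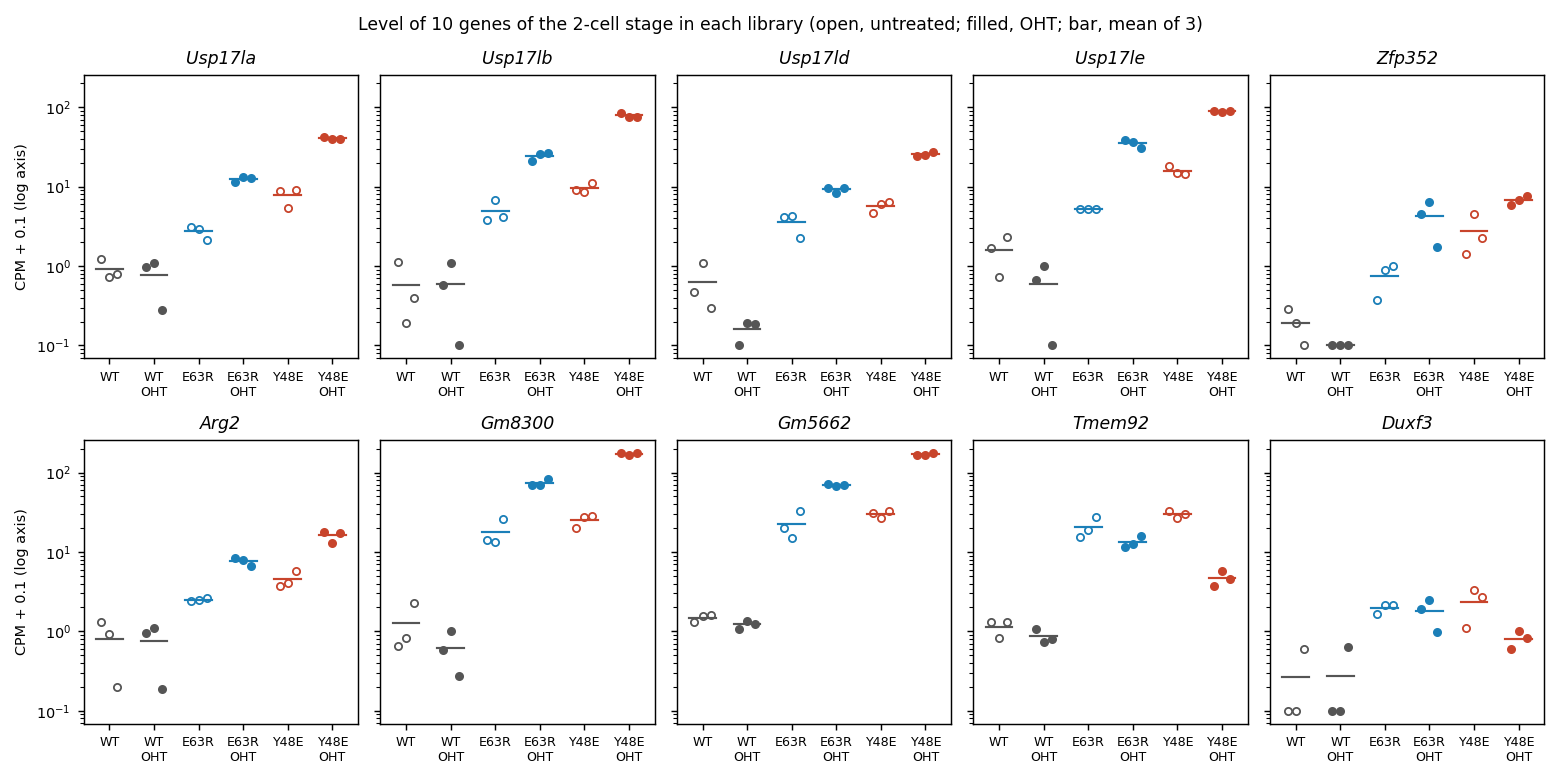
The y axis gives TMM-scaled CPM plus 0.1 on a log axis, for the 3 libraries of each of 6 groups on the x axis (open points untreated, filled points OHT, bar the mean), with 1 panel for each gene. Usp17la, Usp17lb, Usp17ld, Usp17le, Arg2, Gm8300 and Gm5662 run up from HDAC1-WT to OHT-treated HDAC1–Y48E cells, whereas Tmem92 falls in HDAC1–Y48E cells with OHT (29.6 to 4.57 CPM).

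The Usp17l genes encode deubiquitinating enzymes, first known from lymphocytes as proteins induced by cytokines, and lie in a cluster on chromosome 7. Usp17la is at chr7:104857009-104862667 (plus strand), Usp17lb at chr7:104840257-104842603 (minus strand), Usp17le at chr7:104768049-104777470 (minus strand) and Usp17ld at chr7:103249737-103252505 (minus strand), in the mm10 build with GENCODE M21 gene models. Another copy, Usp17lc, at chr7:103415072-103419880 (plus strand), was counted with them in sums. Coding sequences of the 5 copies were 90.6% to 98.4% identical, with Usp17lc and Usp17ld the closest pair. Of all stretches of 150 bases, the length of a read, 98.7% in Usp17la, 97.8% in Usp17lb and 99.2% in Usp17le occurred in no other annotated transcript, but this held for 63.9% in Usp17ld and 70.6% in Usp17lc. Reads shared by copies are largely missing from the counts. Counts of the latter pair may therefore be too low and are uncertain as to the copy.

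Of the 10 genes, 5 had a RefSeq promoter window (Usp17la, Usp17lb, Usp17ld, Zfp352 and Duxf3), which runs from 250 bases before to 50 bases after the annotated start. The 4 Usp17l copies with a window shared a block of 135 bases upstream of the RefSeq start that was 91.9% to 96.3% identical between copies. These blocks are shown as sequence that the copies share, and any part of them in the levels was not tested. They are given 5′ to 3′ on the strand of the gene in GRCm38.p6, with capitals for ATTGG, the inverted form of the box that the factor NF-Y binds, which all 4 blocks hold at 1 shared position and Usp17lc at a further one. Capitals also mark a TATA box. Usp17la is from chr7:104856865-104856999 (plus), Usp17lb from chr7:104842585-104842719 (minus), Usp17lc from chr7:103416503-103416637 (plus) and Usp17ld from chr7:103252586-103252720 (minus).
Usp17la: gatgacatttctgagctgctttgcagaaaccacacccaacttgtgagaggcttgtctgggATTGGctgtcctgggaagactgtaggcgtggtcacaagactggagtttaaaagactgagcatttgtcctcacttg
Usp17lb: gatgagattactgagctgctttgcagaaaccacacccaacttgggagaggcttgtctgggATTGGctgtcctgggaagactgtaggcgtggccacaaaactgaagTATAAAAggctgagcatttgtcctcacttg
Usp17lc: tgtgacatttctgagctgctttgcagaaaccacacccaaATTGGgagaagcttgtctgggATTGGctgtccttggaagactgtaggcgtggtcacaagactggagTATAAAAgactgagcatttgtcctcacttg
Usp17ld: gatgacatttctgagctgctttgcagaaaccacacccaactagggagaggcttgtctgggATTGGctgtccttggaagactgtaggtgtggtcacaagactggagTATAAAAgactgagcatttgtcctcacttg
On either strand, ATTGG occurred in 37.4% of all 32851 promoter windows. The TATA box, searched as TATAAAA on either strand, occurred in 5.5% of them and stood in the windows of Usp17lb, Usp17lc and Usp17ld and not in that of Usp17la. The matches describe the letters only.

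Usp17le was detected in every untreated library and rose with OHT in both mutant lines. Untreated HDAC1-WT libraries held 17, 7 and 22 counts, untreated HDAC1–E63R libraries 56, 46 and 45, and untreated HDAC1–Y48E libraries 167, 129 and 134. After OHT there were 6, 10 and 0 counts in HDAC1-WT, 467, 378 and 310 in HDAC1–E63R and 898, 952 and 1002 in HDAC1–Y48E. No library of a mutant line overlapped with those of HDAC1-WT, and the OHT-treated libraries of each mutant lay above all of its untreated libraries. The mean rose from 5.17 ± 0.0235 to 35.0 ± 4.25 CPM (SD, n = 3) in HDAC1–E63R, a log2 fold change of 2.76 (SE 0.26; 2.75 without the third untreated library), and from 15.8 ± 2.20 to 88.7 ± 2.20 CPM in HDAC1–Y48E, a log2 fold change of 2.49 (SE 0.24). In HDAC1-WT the groups overlapped and the change was not called (log2 fold change −1.55, SE 0.51).

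Usp17lb followed closely and had the largest OHT response of the 10 genes in HDAC1–Y48E. Its counts without OHT were 11, 1 and 3 in HDAC1-WT, 40, 59 and 35 in HDAC1–E63R and 81, 75 and 101 in HDAC1–Y48E. With OHT they were 5, 11 and 0, then 256, 273 and 267, and 855, 838 and 843, in the same order of lines. The 3 treated HDAC1–Y48E libraries thus differed little from each other and stood far above the rest, at 79.0 ± 5.71 CPM against 9.43 ± 1.26 CPM untreated, a log2 fold change of 3.07 (SE 0.30). The rise in HDAC1–E63R was from 4.78 ± 1.63 to 24.4 ± 2.81 CPM, or 2.36 (SE 0.31) on the log2 scale (2.25 without the third untreated library).

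Usp17la and Usp17le were the least changed of the family in untreated HDAC1–E63R cells against HDAC1-WT. Their log2 fold changes were 1.69 (SE 0.38) and 1.82 (SE 0.35), or 1.84 and 1.83 without the third HDAC1–E63R library. Counts of Usp17la were 12, 7 and 7 in untreated HDAC1-WT, 33, 25 and 18 in HDAC1–E63R and 79, 46 and 84 in HDAC1–Y48E, and 9, 11 and 2, 137, 139 and 132, and 426, 438 and 447 after OHT. Mutant libraries lay above those of HDAC1-WT throughout. With OHT it rose from 2.64 ± 0.519 to 12.48 ± 1.015 CPM in HDAC1–E63R (log2 fold change 2.23, SE 0.29; 2.08 without the third untreated library) and from 7.65 ± 2.101 to 40.8 ± 1.63 CPM in HDAC1–Y48E (2.41, SE 0.26).

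Usp17ld had 4, 11 and 2 counts in untreated HDAC1-WT, 44, 37 and 19 in HDAC1–E63R and 42, 52 and 59 in HDAC1–Y48E. After OHT its counts were 0, 1 and 1, 116, 87 and 98, and 243, 274 and 306. It was the only one of the 10 whose HDAC1-WT libraries did not overlap, with all 3 lower after OHT, which held for 9.64% of all tested genes, and the change was not called. It rose in HDAC1–E63R with OHT by a log2 fold change of 1.39 (SE 0.31), or 1.15 without the third untreated library, and in HDAC1–Y48E by 2.18 (SE 0.30).

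Summing the 5 copies sets aside how counted reads were divided among them, but reads shared by copies are largely missing from the sum. Summed Usp17l RNA was 3.51 ± 1.02 CPM in untreated HDAC1-WT cells and 1.94 ± 1.64 CPM after OHT (n = 3 in each group). In HDAC1–E63R it was 22.0 ± 2.84 and 93.8 ± 2.71 CPM, and in HDAC1–Y48E 45.7 ± 4.13 and 266 ± 10.51 CPM. The 4 mutant groups did not overlap with each other or with HDAC1-WT, and the 2 HDAC1-WT groups overlapped. Untreated mutant cells were thus 6.27-fold (HDAC1–E63R) and 13.04-fold (HDAC1–Y48E) above untreated HDAC1-WT cells, and OHT added 4.26-fold and 5.82-fold. Without the third untreated HDAC1–E63R library, that group had a mean of 23.6 CPM, 6.74-fold above HDAC1-WT, and OHT added 3.97-fold.

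The copies did not keep the same shares of this sum. Usp17le held 41.4% of the summed counts in untreated HDAC1-WT cells (95% exact binomial interval 32.2% to 51.2%, 111 counts), 23.4% in untreated HDAC1–E63R cells (20.1% to 26.9%, 629 counts) and 34.5% in untreated HDAC1–Y48E cells (31.9% to 37.3%, 1245 counts). Usp17lc held 6.3% (2.6% to 12.6%), 27.3% (23.9% to 31.0%) and 15.7% (13.8% to 17.9%) in the same groups. Without the third untreated HDAC1–E63R library its shares were 21.9% (18.3% to 26.0%) for Usp17le and 26.9% (22.9% to 31.2%) for Usp17lc. After OHT, Usp17lc held 13.6% of 3078 counts in HDAC1–E63R (12.4% to 14.8%) and 12.1% of 8556 counts in HDAC1–Y48E (11.4% to 12.8%), and Usp17le 37.5% (35.8% to 39.3%) and 33.3% (32.3% to 34.3%). Unlike that of Usp17lc, the share of Usp17lb rose with OHT in both mutant lines. It went from 21.3% (18.2% to 24.7%) and 20.6% (18.4% to 23.0%) untreated to 25.9% (24.3% to 27.4%) and 29.6% (28.7% to 30.6%), so that its intervals in the mutant lines overlapped before OHT and not after. These intervals cover counting error only, over libraries pooled within a group, and, as the sources used here name no molecular identifiers, several reads may stem from 1 molecule. Reads shared by copies are largely missing, so the shares of Usp17lc and Usp17ld may be too low.

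**Figure D2:**
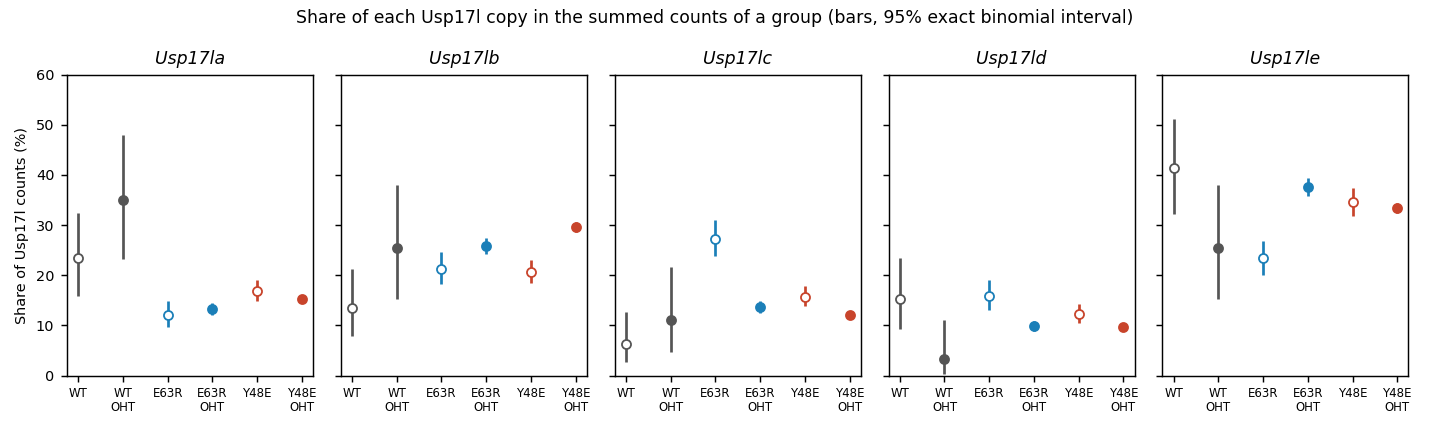
The y axis gives the percentage of the summed Usp17l counts that fell on each of 5 copies (1 panel each), for the 6 groups on the x axis, with 95% exact binomial intervals for counting error. Intervals are wide in HDAC1-WT (111 and 63 counts), and Usp17lc stands at 27.3% in untreated HDAC1–E63R cells against 12.1% to 15.7% in the other mutant groups.

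Gm8300 and Gm5662 are copies of Eif1a, whose product, the translation initiation factor eIF1A, helps the small ribosomal subunit scan for a start codon. Gm8300 lies at chr12:87514316-87518266 (plus strand) and Gm5662 at chr12:88270640-88274500 (minus strand), among many further copies. Their coding sequences of 432 bases were 98.1% identical to each other and 95.1% and 94.2% identical to Eif1a. In Gm8300, 97.0% of stretches of 150 bases were unique among transcripts, against 59.7% in Gm5662, which shares 99.1% of its coding bases with Gm2016. The stretch from coding base 352 to 411 is shown for these 3 copies, 5′ to 3′ in GRCm38, because it holds 4 positions, in capitals, at which they are not all alike. Only the second of these tells Gm5662 from Gm2016, and the others set Gm8300 apart. It is at chr12:87517248-87517307 (plus) in Gm8300, chr12:88271578-88271637 (minus) in Gm5662 and chr12:87876936-87876995 (plus) in Gm2016.
Gm8300: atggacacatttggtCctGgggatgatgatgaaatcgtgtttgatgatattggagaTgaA
Gm5662: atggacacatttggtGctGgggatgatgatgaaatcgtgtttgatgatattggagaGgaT
Gm2016: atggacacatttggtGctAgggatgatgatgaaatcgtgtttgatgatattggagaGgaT

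Both copies were low in HDAC1-WT and rose in the mutant lines. Gm8300 had 6, 8 and 22 counts in untreated HDAC1-WT, 151, 117 and 228 in HDAC1–E63R and 179, 239 and 260 in HDAC1–Y48E, and 5, 10 and 2, 833, 724 and 848, and 1770, 1820 and 1956 after OHT. The untreated mutant lines overlapped with each other, and the treated HDAC1–Y48E libraries stood above all others. OHT raised Gm8300 from 17.7 ± 7.22 to 73.5 ± 8.06 CPM in HDAC1–E63R (log2 fold change 2.06, SE 0.24; 2.43 without the third untreated library) and from 24.9 ± 4.59 to 172.5 ± 6.84 CPM in HDAC1–Y48E (2.79, SE 0.24).

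Gm5662 had 13, 16 and 15 counts in untreated HDAC1-WT, 217, 131 and 283 in HDAC1–E63R and 284, 235 and 303 in HDAC1–Y48E. The OHT-treated libraries held 10, 14 and 13, 857, 717 and 708, and 1649, 1853 and 1963 counts. Untreated mutant lines again overlapped with each other and lay far above HDAC1-WT. Its level rose with OHT to 69.4 ± 1.33 CPM in HDAC1–E63R (log2 fold change 1.64, SE 0.18; 1.98 without the third untreated library) and to 169.7 ± 5.79 CPM in HDAC1–Y48E (2.49, SE 0.18). Per kilobase of exon, Gm8300 and Gm5662 were at 92.1 and 92.2 CPM in OHT-treated HDAC1–Y48E cells, the highest levels of the 10 genes on that scale, above Usp17lb at 50.6 and Usp17le at 44.6.

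A further 17 counted genes were near-identical to these copies (at least 90% over at least 200 bases), of which 14 were tested. With OHT 6 of the 14 were called higher in HDAC1–E63R and 10 in HDAC1–Y48E, beside 4.74% and 10.8% of all tested genes. In each untreated mutant line 11 were called higher than in HDAC1-WT, beside 3.32% and 2.62%. Summed over all Eif1a-like copies, the level lay between 2.79 and 7.69 CPM in the 6 HDAC1-WT libraries and between 785.5 and 803.3 CPM in OHT-treated HDAC1–Y48E cells. The sum in the third untreated HDAC1–E63R library was 152.8 CPM, against 83.9 and 69.8 CPM in the other two. Eif1a itself stayed between 124.9 and 183.1 CPM in all 18 libraries, so that the summed copies exceeded it only in OHT-treated mutant cells.

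**Figure D3:**
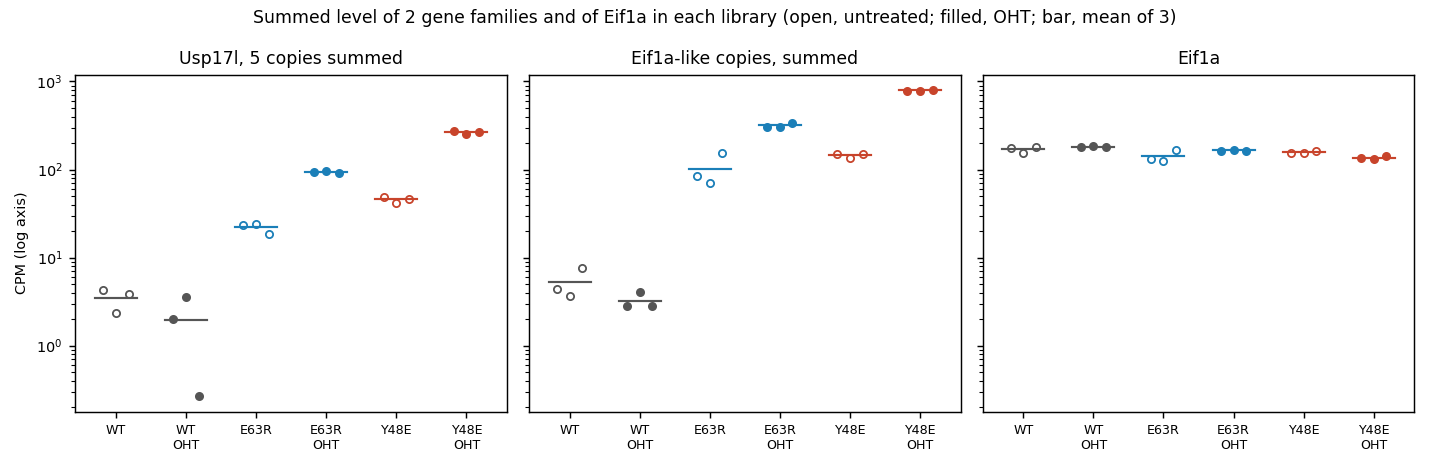
The y axis gives CPM on a log axis for the 5 Usp17l copies summed, the Eif1a-like copies summed and Eif1a, in each library of the 6 groups (open points untreated, filled points OHT, bar the mean of 3). The 2 families rise across the mutant groups, to 266 CPM for Usp17l in OHT-treated HDAC1–Y48E cells, while Eif1a stays between 124.9 and 183.1 CPM.

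Duxf3, at chr10:58229979-58232675 (minus strand), is the annotated copy of Dux, and its coding sequence was 98.1% identical to AW822073 over the aligned 1956 bases. Its counts were low in every group. Untreated HDAC1-WT libraries held 0, 0 and 5 counts, HDAC1–E63R libraries 17, 18 and 18 and HDAC1–Y48E libraries 9, 28 and 24. After OHT there were 0, 0 and 6 counts in HDAC1-WT, 22, 25 and 9 in HDAC1–E63R and 5, 10 and 8 in HDAC1–Y48E. Each untreated mutant line was above all untreated HDAC1-WT libraries, yet the differences were not called (log2 fold change 3.46, SE 1.07, or 3.39 without the third HDAC1–E63R library, and 3.71, SE 1.07), and they rested on the single HDAC1-WT library with counts. Without that library both were called, as they were by DESeq2's Wald test and without the filter on low counts. No rise of Duxf3 with OHT was called. Its log2 fold change was −0.15 (SE 0.86; −0.09 without the third untreated library) in HDAC1–E63R and −1.65 (SE 0.90) in HDAC1–Y48E, where all 3 treated libraries were below the untreated ones and the change was not called. AW822073, the near-identical copy, had no counts in HDAC1-WT cells and 0.988 to 1.29 CPM as means of the 4 mutant groups.

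Zfp352, at chr4:90218820-90225702 (plus strand), encodes a zinc finger protein known from the early embryo. All of its stretches of 150 bases were unique, although the pseudogene Zfp353-ps is 95.2% identical over 1650 bases. The 250 bases before its RefSeq start, at chr4:90218570-90218819 (plus, GRCm38.p6), are shown because they repeat TAATCC, in capitals, the core that bicoid-type homeodomain proteins recognise.
Zfp352: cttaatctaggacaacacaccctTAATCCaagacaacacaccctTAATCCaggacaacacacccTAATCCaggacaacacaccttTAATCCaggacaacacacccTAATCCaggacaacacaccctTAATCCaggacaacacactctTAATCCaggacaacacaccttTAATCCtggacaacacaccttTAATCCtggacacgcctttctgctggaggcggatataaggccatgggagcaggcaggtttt
TAATCC, searched on both strands, occurred at least once in 7.1% of the 32851 windows. That of Zfp352 had 9 matches and was the only window with as many (0.00304% of windows), which describes the letters and not binding.

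Zfp352 was close to absent in HDAC1-WT. It had 2, 1 and 0 counts in untreated HDAC1-WT cells and 0 in all 3 libraries after OHT, a count of 0 that allows up to 3 counts. The HDAC1–E63R libraries held 3, 7 and 8 counts untreated and 53, 66 and 17 after OHT, and the HDAC1–Y48E libraries 12, 39 and 20 untreated and 58, 74 and 83 after OHT. Replicates were uneven in treated HDAC1–E63R and untreated HDAC1–Y48E cells. By its counts, untreated Zfp352 was 6.71-fold above HDAC1-WT in HDAC1–E63R (95% exact counting interval 1.96 to 35.6) and 27.7-fold in HDAC1–Y48E (9.10 to 137.5). OHT raised it to 4.11 ± 2.32 CPM in HDAC1–E63R, a called log2 fold change of 2.65 (SE 0.63; 2.96 without the third untreated library), although leaving out the first or second treated library, or the first untreated one, ended the call (2.60, 2.21 and 2.26). In HDAC1–Y48E the log2 fold change of 1.34 (SE 0.55) was not called with all 18 libraries in the fit, and was called with only the 6 libraries of that line.

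Arg2, the mitochondrial arginase that splits arginine into ornithine and urea, lies at chr12:79130777-79156301 (plus strand). Its exons overlap Vti1b over 285 bases and Gm48780 over 116 bases, both on the opposite strand, and whether counting used strand is not given in the sources used here. Vti1b means were between 27.4 and 60.3 CPM, so reads from it could be counted on Arg2 or left out as ambiguous. Arg2 had 13, 9 and 1 counts in untreated HDAC1-WT, 25, 21 and 22 in HDAC1–E63R and 33, 35 and 52 in HDAC1–Y48E, and 9, 11 and 1, 100, 82 and 67, and 179, 144 and 192 after OHT. No mutant library overlapped with HDAC1-WT. OHT raised it from 2.40 ± 0.106 to 7.54 ± 0.890 CPM in HDAC1–E63R (log2 fold change 1.65, SE 0.43; 1.68 without the third untreated library) and from 4.40 ± 1.05 to 16.1 ± 2.65 CPM in HDAC1–Y48E (1.87, SE 0.41), while Vti1b changed by −0.25 and 0.69. The call in HDAC1–E63R was lost on leaving out any of 5 of its 6 libraries, with the log2 fold change between 1.58 and 1.74.

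Tmem92, which encodes a transmembrane protein, is at chr11:94777217-94782703 (minus strand), and 100% of its stretches of 150 bases were unique. Its counts were 13, 8 and 12 in untreated HDAC1-WT, 168, 167 and 241 in HDAC1–E63R and 293, 234 and 280 in HDAC1–Y48E. After OHT they were 10, 7 and 8, 138, 132 and 160, and 36, 63 and 49. It was thus the gene with the largest difference between untreated lines, with a log2 fold change against HDAC1-WT of 4.29 (SE 0.29) in HDAC1–E63R (4.03 without the third library) and 4.82 (SE 0.29) in HDAC1–Y48E. OHT lowered it in HDAC1–Y48E from 29.6 ± 2.82 to 4.57 ± 1.06 CPM, with no overlap between the libraries and a log2 fold change of −2.69 (SE 0.25). In HDAC1–E63R its libraries overlapped (20.6 ± 6.21 against 13.2 ± 2.18 CPM, log2 fold change −0.64, SE 0.23, or −0.38 without the third untreated library), and the change was not called.

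Next to Tmem92 on the same strand lie 5 unprocessed pseudogenes, Gm11545, Gm11546, AA623943, Gm11543 and Gm11544, between chr11:94756976 and chr11:94846092. Gm11543 is 92.4% identical to it over 302 bases and Gm11544 90.9% over 298 bases. The pseudogenes were chosen after their values were seen, so their adjusted p-values, over all tested genes, are given as a description. Gm11543 had 4, 7 and 13 counts in untreated HDAC1-WT, 78, 66 and 123 in HDAC1–E63R and 148, 177 and 164 in HDAC1–Y48E, and 0, 0 and 0, 69, 57 and 61, and 6, 4 and 0 after OHT. It fell with OHT in HDAC1–Y48E (log2 fold change −5.79, SE 0.54, edgeR adjusted p = 4.26e-08), as did AA623943 (−3.36, SE 0.49, adjusted p = 9.74e-06) and Gm11546 (−3.06, SE 0.68, adjusted p = 0.000963). Gm11545 (−0.50, SE 0.58, adjusted p = 0.509) and Gm11544 (−2.04, SE 1.07, adjusted p = 0.134) did not pass the test there. In untreated HDAC1–Y48E against HDAC1-WT all 5 were called higher, and in HDAC1–E63R 3 of them were, beside 2.62% and 3.32% of all tested genes. Of 27 tested genes within 500 kb of Tmem92, 3 were called higher after OHT in HDAC1–Y48E (Cacna1g, Epn3 and Col1a1), beside 10.8% of all tested genes. The count is near that share, so nothing is read from it. Called lower there were 4 (Gm11546, AA623943, Gm11543 and Pdk2), beside 5.84%. In HDAC1–E63R 4 were called higher (Cacna1g, Epn3, Col1a1 and Ppp1r9b), beside 4.74%.

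**Figure D4:**
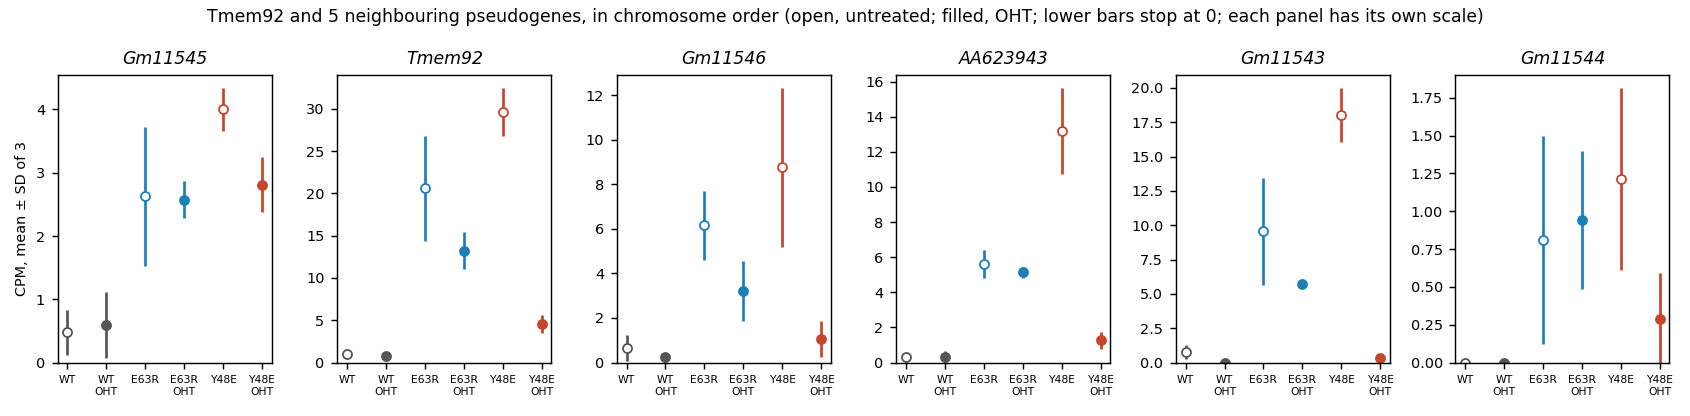
The y axes give CPM (mean ± SD of 3 libraries, each panel with its own scale from 0) for Tmem92 and 5 neighbouring pseudogenes, in the 6 groups on the x axis. Tmem92 stands at 29.6 CPM in untreated HDAC1–Y48E cells and 4.57 CPM after OHT, and Gm11543 at 18.01 and 0.321 CPM.

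Between untreated lines, 7 of the 10 genes were called higher in HDAC1–E63R than in HDAC1-WT, where 3.32% of all tested genes were called higher, and 9 in HDAC1–Y48E, where 2.62% were. The choice of genes used these libraries, so nothing is read from these counts. Exceptions were Zfp352, Arg2 and Duxf3 in HDAC1–E63R and Duxf3 in HDAC1–Y48E. In each mutant line all 10 had every untreated library above every untreated HDAC1-WT library, as had 17.1% and 20.5% of all tested genes. The median log2 fold change was 2.99 in HDAC1–E63R and 4.00 in HDAC1–Y48E. Without the third untreated HDAC1–E63R library 7 were again called, with a median of 3.16. The untreated mutant lines differed in order for most genes: Usp17la, Usp17lb, Usp17ld, Usp17le, Zfp352 and Arg2 were higher in HDAC1–Y48E with no overlap, whereas Gm8300, Gm5662, Tmem92 and Duxf3 overlapped.

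OHT called none of the 10 in HDAC1-WT with edgeR, against 0.0373% of tested genes called higher and 0.016% called lower. DESeq2 called none either. An unadjusted p under 0.05 in edgeR held for 2 of the 10 and for 1852 of the 18791 tested genes. In HDAC1–E63R OHT called 8 higher, beside 4.74% of tested genes, and without the third untreated library again 8. Each of the 8 had all treated libraries above all untreated ones, as had 21.2% of tested genes. In HDAC1–Y48E it called 7 higher and 1 lower, beside 10.8% and 5.84% of tested genes. Here 8 genes were higher and 2 lower without overlap, as were 31.8% and 27.5% of tested genes. The median log2 fold change with OHT was −0.36 in HDAC1-WT (also with Zfp352 and Duxf3, whose group means were at or under 3 counts per library, left out), 1.85 in HDAC1–E63R (2.03 without the third untreated library) and 2.30 in HDAC1–Y48E, while the median of all tested genes was 0.00, 0.03 and 0.05.

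**Figure D5:**
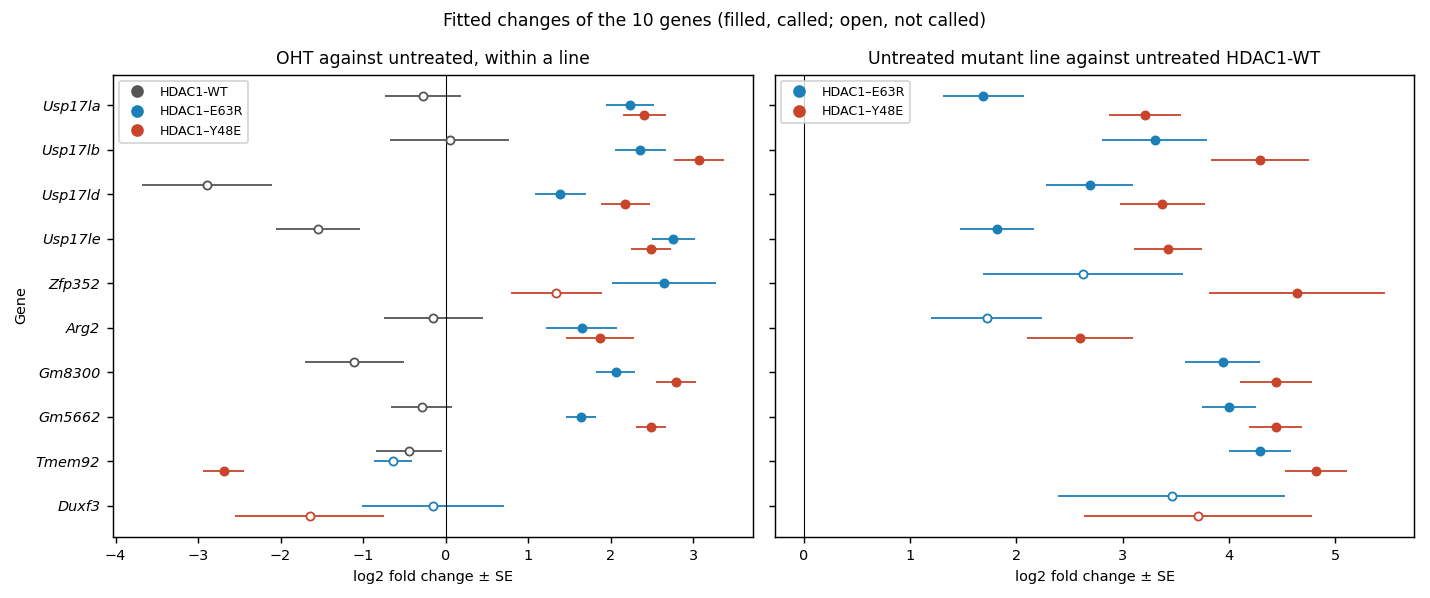
The x axes give log2 fold changes with standard errors for the 10 genes on the y axis, for OHT against untreated cells within each line (left) and for untreated mutant lines against untreated HDAC1-WT (right), with filled points for called changes. Zfp352 and Duxf3 in HDAC1-WT are not drawn for OHT, their group means being at or under 3 counts per library. Tmem92 is the gene called lower with OHT (−2.69 in HDAC1–Y48E), and all points on the right lie above 0.

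The OHT responses of the lines also differed from each other. That of HDAC1–E63R exceeded that of HDAC1-WT by a called amount for Usp17la, Usp17ld, Usp17le, Gm8300 and Gm5662, beside 1.25% of tested genes, with differences in log2 fold change from 1.93 (Gm5662) to 4.30 (Usp17le), or from 2.27 to 4.30 for these genes without the third untreated library. The same 5 genes had a called excess in HDAC1–Y48E over HDAC1-WT, beside 4.65% of tested genes, from 2.69 (Usp17la) to 5.08 (Usp17ld). The largest differences include falls in HDAC1-WT that were not called and rest on low counts. These falls were −2.89 for Usp17ld, with a mean of 0.0596 CPM after OHT, under 3 counts per library, and −1.55 for Usp17le. The calls for HDAC1–E63R were less stable than those for HDAC1–Y48E. With only the libraries compared, those of Usp17la (2.50), Usp17ld (4.28), Gm8300 (3.17) and Gm5662 (1.92) were lost. Each of them was also lost on leaving out some single libraries, and only Usp17le kept its call throughout. The 5 excesses in HDAC1–Y48E kept their calls in every setting. Tmem92 responded more negatively in HDAC1–Y48E than in HDAC1-WT (difference −2.25, SE 0.48) and than in HDAC1–E63R (−2.05, SE 0.33), where 3.97% and 0.99% of tested genes were called lower. Between the mutant lines Tmem92 was the only one of the 10 called, with or without the third untreated HDAC1–E63R library (−2.31 without it). All of these comparisons share the untreated and treated libraries of a line.

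A list of 43 other 2-cell stage genes, also drawn up with results of these libraries known, held 29 that were tested. In untreated HDAC1–E63R against HDAC1-WT, 17 of the 29 were called higher and 1 lower (15 and 1 without the third library), beside 3.32% and 4.33% of all tested genes. In untreated HDAC1–Y48E 18 were called higher and 1 lower, beside 2.62% and 2.95%. OHT called 10 higher in HDAC1–E63R (15 without the third untreated library), beside 4.74% of tested genes, and 17 in HDAC1–Y48E, beside 10.8%. In HDAC1-WT edgeR called none higher and 1 lower, beside 0.0373% and 0.016% of tested genes, and DESeq2 none higher and 2 lower. The 1 called lower by edgeR was Gm12794, at 1.048 ± 0.7125 CPM untreated and 0 CPM after OHT in HDAC1-WT. There 9 of the 29 had an unadjusted p under 0.05 in edgeR, as had 1852 of the 18791 tested genes. The median log2 fold change of the list, with genes at 0 in a group set to 3 counts per library, was 2.60 and 3.10 in the untreated mutant lines and 1.52 and 2.00 with OHT.

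Genes of this list are named only where called in a comparison, so their adjusted p-values are a description and do not test the list. Within it, Gm2016, an Eif1a-like copy, rose with OHT from 12.4 ± 4.12 to 43.7 ± 3.66 CPM in HDAC1–E63R (edgeR adjusted p = 1.68e-06) and from 20.96 ± 2.41 to 105.8 ± 2.07 CPM in HDAC1–Y48E (adjusted p = 6.08e-09). Spz1, a testis transcription factor, rose from 0.912 ± 0.620 to 11.97 ± 0.9501 CPM in HDAC1–Y48E (adjusted p = 2.66e-05). Other genes of the list were high in untreated mutant cells without a further call after OHT. Gm4340 was at 2.25 ± 0.808 CPM in untreated HDAC1-WT, 32.6 ± 17.1 CPM in HDAC1–E63R and 53.4 ± 5.72 CPM in HDAC1–Y48E (adjusted p = 1.95e-05 and 2.96e-06), and its OHT responses did not pass the test (adjusted p = 0.787 and 0.582). Ubtfl1 was at 0.278 ± 0.406, 4.03 ± 1.21 and 4.68 ± 0.947 CPM in the same groups (adjusted p = 0.000238 and 0.000166), and likewise did not pass with OHT (adjusted p = 0.964 and 0.445). Calcoco2, an autophagy receptor, differed from the rest of the list by being lower in both untreated mutant lines, at 13.9 ± 3.84 and 14.6 ± 1.80 CPM against 46.1 ± 2.27 CPM in HDAC1-WT (adjusted p = 1.13e-07 and 2.91e-07). It was also among those called higher with OHT in HDAC1–E63R (log2 fold change 1.12, SE 0.17, adjusted p = 5.39e-05).

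Dppa2 and Dppa4, partner proteins that bind and activate the Dux promoter, were both higher in the untreated mutant lines. Dppa2 was at 18.8 ± 4.97 CPM in untreated HDAC1-WT, 53.5 ± 7.68 CPM in HDAC1–E63R (adjusted p = 9.04e-06) and 43.5 ± 4.76 CPM in HDAC1–Y48E (adjusted p = 0.000163). Dppa4 was at 31.5 ± 1.51, 86.0 ± 25.5 and 65.4 ± 2.35 CPM (adjusted p = 5.5e-07 and 3.93e-05). OHT called none of the 4 activators tested (Dppa2, Dppa4, Nelfa, Trp53) in any line with edgeR or DESeq2. In each line 2 of 4 had an unadjusted p under 0.05 in edgeR. So had 1852 (HDAC1-WT), 6886 (HDAC1–E63R) and 9583 (HDAC1–Y48E) of the 18791 tested genes. Dppa2 in HDAC1–E63R passed the adjusted p with OHT (0.0096 in edgeR) but not the 2-fold rule. It went from 53.5 to 87.6 CPM, a log2 fold change of 0.71 (SE 0.19).

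Of 19 tested genes known to hold back Dux or MERVL, none was called in any of these comparisons with edgeR or DESeq2. Between 3 and 10 of the 19 had an unadjusted p under 0.05, over comparisons in which 1852 to 9583 of the 18791 tested genes had one. The median log2 fold change of the 19 lay between −0.25 and 0.18. Kdm1a was at 269.6 ± 8.27 CPM in untreated HDAC1-WT, 329.2 ± 12.3 CPM in HDAC1–E63R and 281.0 ± 8.54 CPM in HDAC1–Y48E. Its RNA after OHT did not pass the test in HDAC1–E63R (log2 fold change −0.28, SE 0.08, adjusted p = 0.0139) or HDAC1–Y48E (−0.16, SE 0.08, adjusted p = 0.121).

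Few genes near the Usp17l copies were tested, so no statement is made on the region. Neighbours named here were picked after their values were seen, so their adjusted p-values are a description. Of 5 tested genes within 500 kb of Usp17le other than the 10, Trim12c was called higher after OHT in HDAC1–E63R (log2 fold change 1.26, SE 0.25, adjusted p = 0.000902) and HDAC1–Y48E (1.87, SE 0.26, adjusted p = 4.49e-06), beside 4.74% and 10.8% of all tested genes. Trim12c was called lower in untreated HDAC1–Y48E against HDAC1-WT (−1.02, SE 0.26, adjusted p = 0.00675), beside 2.95%. Near Usp17ld the only such gene was Usp17lc, another copy. Usp17lc was called higher after OHT in HDAC1–Y48E and in untreated HDAC1–E63R and HDAC1–Y48E, beside 10.8%, 3.32% and 2.62% of all tested genes. No tested gene lay within 500 kb of Zfp352. Around Gm8300, 12 of 27 tested genes were called higher after OHT in HDAC1–Y48E and 1, Alkbh1, lower, beside 10.8% and 5.84% of all tested genes. Among those called higher, Gm5788, Gm4027, BB287469, Gm2016, Gm2022, Gm2035 and Gm2075 are Eif1a-like copies already counted above, so this count is not one of unrelated neighbours. Ngb (4.17, SE 0.55, adjusted p = 2.74e-06) and Tmem63c (2.11, SE 0.54, adjusted p = 0.00293) were also called higher and are not near-identical copies of Gm8300.

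Over the 18 libraries, the genes whose log2 CPM was most like the summed Usp17l level were Gm2016 (Pearson r = 0.983), Gm4971 (0.975), Glipr2 (0.972), Calu (0.968) and Zscan4f (0.968). For Zfp352 they were Gm2075 (0.965), Zscan4f (0.959), Osbpl6 (0.957), Tpm4 (0.95) and Calu (0.95). These values describe 6 groups of 3 libraries and mostly reflect the differences between groups, which the points share. Calu, a calcium-binding protein of the secretory pathway, changed far less than Usp17l, from a mean of 206.1 CPM in OHT-treated HDAC1-WT cells to 563.9 CPM in OHT-treated HDAC1–Y48E cells.

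Markers of other cell types moved between the same groups. The sum of 6 primitive endoderm markers lay between 12.46 and 25.7 CPM in untreated mutant libraries and between 46.2 and 51.8 CPM in OHT-treated HDAC1–Y48E, with 36.0 to 43.6 CPM in HDAC1-WT. That of 6 trophoblast markers lay between 62.1 and 88.3 CPM in untreated mutant libraries, 160.5 and 166.4 CPM in OHT-treated HDAC1–E63R, 117.5 and 133.9 CPM in OHT-treated HDAC1–Y48E and 206.9 and 249.9 CPM in HDAC1-WT, where Cdx2 was at 0 after OHT. The primitive endoderm sum in OHT-treated HDAC1–E63R was 22.3 to 26.3 CPM. For 5 fibroblast markers the sum reached 94.3 to 104.4 CPM in OHT-treated HDAC1–Y48E, against 27.8 to 43.4 CPM in untreated mutant libraries and 60.1 to 67.5 CPM in OHT-treated HDAC1–E63R. In HDAC1-WT it was 43.4 to 49.3 CPM untreated and 62.1 to 66.0 CPM after OHT. Single markers did not all follow their sums. Tfap2c made up most of the trophoblast sum in HDAC1-WT (177.9 CPM untreated, against 54.0 CPM in OHT-treated HDAC1–Y48E). Hand1 was at 7.13 CPM in untreated HDAC1-WT, 28.9 CPM in OHT-treated HDAC1–E63R and 16.4 CPM in OHT-treated HDAC1–Y48E. With OHT in HDAC1–Y48E, Dab2 went from 8.20 to 30.3 CPM and Gata4 from 7.08 to 5.47 CPM. Col1a1 went there from 3.67 to 30.9 CPM and Pdgfrb from 16.7 to 11.2 CPM. The part of these cell types in the levels of the 10 genes was not tested.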

How the data were processed

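RNA-seq libraries were made from total RNA of 18 ESC cultures, 3 per group. The authors deposited whole-number counts of reads per gene for each library, made, per the labels and the submitters' processing notes, with HISAT2 2.1.0, SAMtools 1.9 and HTSeq on mm10. Whether counting used strand is not given in the sources used here. Entries that name no gene (59.4% to 61.2% of all entries, with 6.29% to 7.86% for reads aligned to several places) were left out of library sizes and tests, so reads shared by near-identical copies are largely missing from these counts.

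The deposited counts were fitted in edgeR 4.0.16 (R 4.3.3) by its quasi-likelihood test, with TMM factors, filterByExpr and 1 mean per group over all 18 libraries. Calls needed an adjusted p (Benjamini-Hochberg) under 0.01 and a change beyond 2-fold. The study's methods used DESeq2, which (version 1.42.0) was an alternative here, as were other factors, no filter, only the libraries compared, a replicate block, summed copies and each library left out. The fit was tested on simulated data. The libraries are described as biological replicates, but the labels name no separate cultures, so p-values may measure technical spread.

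The 10 genes and the lists of other genes were chosen with earlier results of these data known. All 10 are named, whatever their values. List genes could be named where called in a comparison with a mean of at least 1 CPM in a group, and Dppa2, Dppa4 and Kdm1a in any case. Neighbours named singly were picked after their values were seen. Gene models are GENCODE M21, copies were found with blastn 2.17.0, and promoter windows are from RefSeq.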

Additional observations from a re-analysis of the deposited data

Results flagged for a closer look

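The OHT response of several of the 10 genes differed between lines by edgeR's test of the difference itself (adjusted p under 0.01 and beyond 2-fold over all tested genes). HDAC1–E63R minus HDAC1-WT gave log2 differences of 2.50 for Usp17la, 4.28 for Usp17ld, 4.30 for Usp17le, 3.17 for Gm8300 and 1.93 for Gm5662. HDAC1–Y48E minus HDAC1-WT gave 2.69 for Usp17la, 5.08 for Usp17ld, 4.04 for Usp17le, 3.90 for Gm8300 and 2.78 for Gm5662. For Tmem92 the difference was −2.25 between HDAC1–Y48E and HDAC1-WT and −2.05 between HDAC1–Y48E and HDAC1–E63R. Since the genes were chosen on these libraries, the differences are a description. Those of Usp17ld and Usp17le include HDAC1-WT changes of −2.89 and −1.55, which were not called and rest on low counts. The first of the Tmem92 differences was no longer called without the first OHT-treated HDAC1-WT library (−2.07). Of the differences between HDAC1–E63R and HDAC1-WT, only that of Usp17le kept its call in every setting. Those of Usp17la, Usp17ld, Gm8300 and Gm5662 lost it with only the libraries compared and without some single libraries.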

How the results depend on the processing

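No called value of the 10 genes changed sign. Among values not called, 17 over 9 results did, each with a library left out, 10 of them for OHT in HDAC1-WT (Usp17la, −0.67 to 0.19, Usp17lb, Arg2 and Duxf3), so no direction is read there. Duxf3 with OHT in HDAC1–E63R went from −0.15 to 0.16 without the third treated library. Of 1098 values over 80 results, 1053 moved by less than the replicate spread, 47 calls were lost (34 with a library left out, 11 with only the libraries compared, 2 with the replicate block) and 20 gained. Causes were not tested. The OHT response of Zfp352 in HDAC1–E63R lost its call with only the libraries compared (2.64), as did Usp17ld (1.39) and Arg2 (1.64), and Usp17la in untreated HDAC1–E63R lost its call without untreated HDAC1-WT replicate 2 (1.54) or replicate 3 (1.61). Duxf3 in the untreated mutant lines was called without the third untreated HDAC1-WT library (7.30 and 7.54, against 2 libraries at 0 and so no bound).

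Over all genes, the OHT response in HDAC1-WT gave 10 calls, and 50 without the filter on low counts, 22 with only the libraries compared, 35 by DESeq2 and 3 to 7 with one of its libraries left out, lowest without the third untreated one. With only the libraries compared, 388 genes were called for OHT in HDAC1–E63R (1111 in the full fit) and 504 for untreated HDAC1–E63R (1437). The difference in response between HDAC1–E63R and HDAC1-WT gave 316 calls, 530 without the filter, 144 with only the libraries compared, 490 by DESeq2, and 206 (without the first untreated HDAC1-WT library) to 486 (without the third untreated HDAC1–E63R library), with 209 without the second OHT-treated HDAC1–E63R library. That between HDAC1–Y48E and HDAC1–E63R gave 246 calls, 419 without the filter and 184 to 465 with a library left out, highest without the third untreated HDAC1–E63R library.

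Same-numbered libraries did not deviate together (correlations −0.107 to 0.075), so the numbers do not pair them. A replicate block gave 5 calls for OHT in HDAC1-WT and ended the calls of Arg2 (OHT in HDAC1–E63R, 1.64) and Usp17la (difference of HDAC1–E63R from HDAC1-WT, 2.51).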
